A study of Mus musculus with 12 samples.

Results

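The 9 genes described here are Kit, its ligand gene Kitl, and 7 genes of germ cell specification and maintenance, Prdm1, Prdm14, Dppa3, Tfap2c, Ifitm3, Nanos3 and Dnd1. They were followed through 12 RNA-seq libraries from mouse embryos at E7.25, a stage of gastrulation, sorted into 4 cell types with 3 libraries each. All 9 were found by Ensembl identifier among the 38924 genes of the deposited count tables. The members were selected on measured values of these libraries, above all on how YFP-positive cardiac mesoderm differed from YFP-negative cardiac mesoderm. That difference is therefore given as a description with no test.

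All 12 libraries came from the Foxa2Cre:Rosa26-YFP line, in which a Cre recombinase driven by Foxa2 switches on a yellow fluorescent protein (YFP) reporter permanently, so that YFP marks cells in which Foxa2 has been active at some time. YFP-positive cardiac mesoderm is labelled ventricular and YFP-negative cardiac mesoderm non-ventricular. The endoderm is labelled as EPCAM+ and the hematopoietic mesoderm as KDR+. The labels give no treatment, and they do not say how many embryos went into a library or whether the 3 libraries of a type came from separate embryos, so p-values measure only the spread between these libraries, which may be technical.

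Kit is a receptor tyrosine kinase and Kitl, also called stem cell factor, is its membrane-bound or shed ligand. Binding pairs 2 receptors and starts signalling through RAS and MAPK, PI3K and AKT, and SRC family kinases, on which migrating germ cells, blood progenitors and melanocytes depend. Primordial germ cells are set aside from the proximal epiblast under BMP signals at about the stage sampled here. In them the transcription factors PRDM1 (BLIMP1), PRDM14 and TFAP2C (AP-2 gamma) establish the germ cell programme, while Ifitm3 and Dppa3 are among their classical markers and Nanos3 and Dnd1 encode RNA-binding proteins that keep the cells alive. Prdm1 and Kit are also known from other cells of the early embryo, Prdm1 from endoderm and Kit from blood progenitors.

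The summed marker genes mostly went with the sort labels, though some single genes did not. Over 10 endoderm markers, the summed level ran from 1356 to 3067 counts scaled to library size (CPM) in endoderm and from 31.1 to 128 CPM in the other 9 libraries. Over 11 blood and endothelium markers it ran from 1548 to 2604 CPM in hematopoietic mesoderm and from 45.3 to 460 CPM elsewhere. Over 10 cardiac mesoderm markers it ran from 1075 to 1550 CPM in the cardiac libraries, from 116 to 203 CPM in endoderm and from 838 to 1288 CPM in hematopoietic mesoderm. Most of that last sum was Kdr (777 ± 164 CPM, SD, n = 3), the gene this type was sorted on, and Gata4 (175 ± 79.6 CPM). Mesp1 and Mesp2, which mark early cardiac mesoderm, were at 0.218 and 0.0803 CPM there, against 28.5 and 18.1 CPM in YFP-positive and 37.7 and 12.3 CPM in YFP-negative cardiac mesoderm, and Pdgfra was at 27.2 CPM against 359 and 307 CPM. Gene counts per library ranged from 4472800 to 7888631, so that 3 counts, the limit that a count of 0 allows, corresponded to between 0.357 and 0.723 CPM. This limit covers counting error only.

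For Kit, Kitl and Prdm1, every cardiac mesoderm library lay below every endoderm library. This order served only to pick the 3 promoters shown. The share of all genes with such an order was not counted, here or where libraries are said below not to overlap. Each window holds 250 bases before and 50 bases after a RefSeq transcription start (GRCm38.p6), written 5′ to 3′ on the gene's strand. Kit lies on chromosome 5, plus strand (window chr5:75574737-75575036, the first of its listed starts). Kitl lies on chromosome 10, plus strand (window chr10:100015571-100015870). Prdm1 lies on chromosome 10, minus strand (window chr10:44458699-44458998). Capitals mark a match to 1 of the 6 short motifs searched.
Kit: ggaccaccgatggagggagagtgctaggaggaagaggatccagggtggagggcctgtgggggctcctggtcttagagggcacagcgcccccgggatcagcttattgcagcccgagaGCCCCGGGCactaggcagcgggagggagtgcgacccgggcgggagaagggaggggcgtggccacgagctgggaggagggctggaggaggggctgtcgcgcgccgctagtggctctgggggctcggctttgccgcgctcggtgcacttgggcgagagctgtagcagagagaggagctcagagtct
Kitl: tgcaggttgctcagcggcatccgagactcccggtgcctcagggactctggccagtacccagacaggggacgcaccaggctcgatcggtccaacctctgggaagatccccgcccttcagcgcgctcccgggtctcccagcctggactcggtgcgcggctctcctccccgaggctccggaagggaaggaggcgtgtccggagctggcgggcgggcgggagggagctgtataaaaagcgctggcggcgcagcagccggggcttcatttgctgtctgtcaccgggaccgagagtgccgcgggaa
Prdm1: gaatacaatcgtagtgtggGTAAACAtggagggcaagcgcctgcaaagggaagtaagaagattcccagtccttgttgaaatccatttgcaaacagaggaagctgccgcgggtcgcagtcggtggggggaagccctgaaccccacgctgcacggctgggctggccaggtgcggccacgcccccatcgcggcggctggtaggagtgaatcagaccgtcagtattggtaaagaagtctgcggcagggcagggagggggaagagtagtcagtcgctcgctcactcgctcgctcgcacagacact

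All 3 windows were rich in G and C, at 69% for Kit, 68.7% for Kitl and 59.7% for Prdm1, against a median of 52.7% over 32851 windows of the same length. They held 20, 28 and 20 CpG pairs, against a median of 7. The motifs were searched on both strands and none shares letters with another match shown. The Kit window held GCCNNNGGC, the AP-2 motif bound by the family of TFAP2C, at position 117 of the window, as did 16.6% of all windows. The Prdm1 window held TGTTTAC, a forkhead motif of the family of FOXA2, at position 20 on the opposite strand, as did 3.65% of all windows. The Kitl window matched none of the 6. The GATA factor motif AGATAA was in none of the 3 and in 11.2% of all windows. The SOX factor motif AACAAT was in none of the 3 and in 10.7% of all windows. The PRDM1 motif GTGAAAG (4.24% of all windows) was in none of the 3. Nor was the PRDM14 motif GGTCTCTAA (0.256% of all windows). A match describes letters only. Windows were found for 5 of the 9 members, the others being Ifitm3 and Nanos3.

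Kit (ENSMUSG00000005672.6, GRCm38 chr5:75574916-75656722, plus strand), the receptor, was the member that set the cardiac fractions furthest apart. In YFP-positive cardiac mesoderm its level was 0.833, 0.547 and 4.81 CPM in replicates 1, 2 and 3, from 4, 3 and 26 counts. In YFP-negative cardiac mesoderm it was 13.9, 30.1 and 29.5 CPM. The ranges did not overlap, with the highest YFP-positive library below the lowest YFP-negative library. Means were 2.06 ± 2.38 CPM (SD, n = 3) and 24.5 ± 9.20 CPM (SD, n = 3), a ratio of 11.9, and the difference of mean log2 CPM was -3.76 with a pooled SD of 1.07. YFP-positive replicate 3 held most of the Kit counts of its type, and without it the difference was -4.54. Over all 14170 genes tested, the median of the same difference was -0.09. These values are a description, since this contrast chose the member. No gene passed an adjusted p of 0.05 in it (edgeR, 0%), while 1062 genes had an unadjusted p under 0.05, DESeq2 called 97 and limma voom called 0.

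Endoderm and hematopoietic mesoderm held far more Kit mRNA. Endoderm libraries had 130, 147 and 156 CPM, and hematopoietic mesoderm libraries had 173, 117 and 71.6 CPM. Every library of either type was above every cardiac library, and the 2 types overlapped each other. By mean the order was endoderm (144 ± 12.9 CPM, SD, n = 3), hematopoietic mesoderm (120 ± 50.8 CPM), YFP-negative and YFP-positive cardiac mesoderm, and the first 2 differed by less than their spread.

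**Figure D1:**
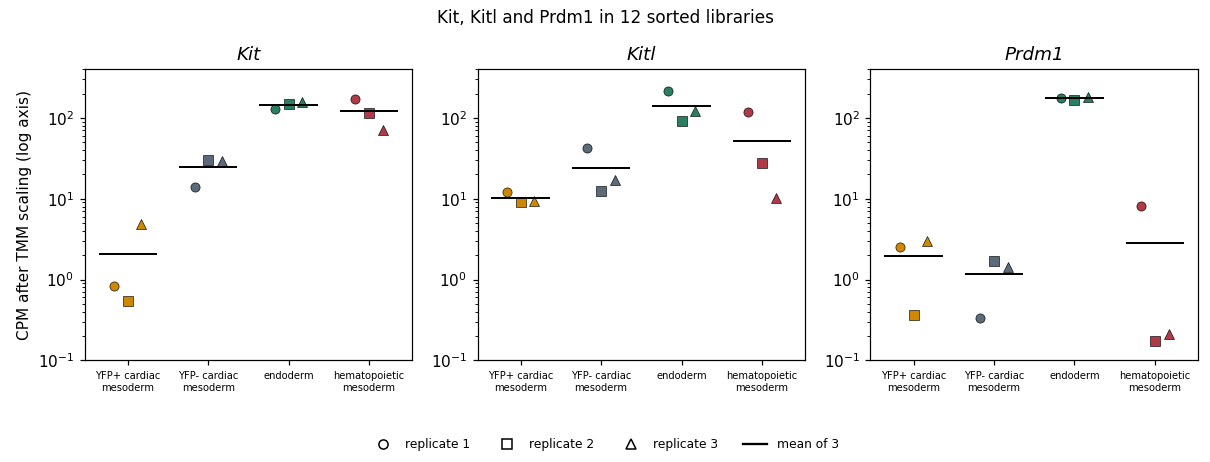
Levels of Kit, Kitl and Prdm1 in CPM after TMM scaling (log axis) for the 4 sorted types, with a symbol per library and a line at the mean of 3 libraries. Kit stepped from at most 4.81 CPM in YFP-positive through 13.9 to 30.1 CPM in YFP-negative cardiac mesoderm to at least 71.6 CPM in the other types, while Prdm1 stood at 169 to 179 CPM in endoderm and at 8.19 CPM or less elsewhere.

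The members were tested in the 5 other pairs of types. Of these, 4 share cardiac libraries with the contrast that chose the members, and the types were all in view when the members were chosen, so that only endoderm against hematopoietic mesoderm rests on libraries outside that contrast. In YFP-positive cardiac mesoderm, Kit was lower than in endoderm, at -6.11 ± 0.78 on the log2 scale (SE, edgeR adjusted p = 0.00134). It was also lower there than in hematopoietic mesoderm, at -5.84 ± 0.77 (edgeR adjusted p = 0.00410). Without YFP-positive replicate 3, these became -7.68 and -7.41. The second call was not made when only the 2 types were fitted (edgeR adjusted p = 0.115) or with limma voom (adjusted p = 0.0511).

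YFP-negative cardiac mesoderm stood between the extremes. Its Kit log2 fold change was -2.56 ± 0.65 against endoderm (edgeR adjusted p = 0.0822) and -2.29 ± 0.64 against hematopoietic mesoderm (edgeR adjusted p = 0.119), and neither passed, although no libraries overlapped. DESeq2 called both, at adjusted p of 0.000471 and 0.00308, as did limma voom, at adjusted p of 0.000706 and 0.0451. The difference from endoderm was also called by edgeR without a filter and with only the 2 types fitted (adjusted p = 0.00153). Endoderm and hematopoietic mesoderm differed by 0.26 ± 0.61 (edgeR adjusted p = 0.859).

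Markers of Kit-rich types were measured in the same cardiac libraries. Summed endoderm markers were 89.1, 31.2 and 128 CPM in YFP-positive replicates 1, 2 and 3 and 41.1, 32.7 and 50.1 CPM in YFP-negative replicates, where Foxa2 and Amn were at 0. YFP-positive replicate 3, the highest of its type for Kit, was also the highest of its type for these and for the 8 epiblast markers (854 CPM against 685 and 593 CPM). Summed blood and endothelium markers were 59.9, 460 and 134 CPM in the YFP-positive and 276, 282 and 158 CPM in the YFP-negative replicates, where Hbb-bh1 was at 0. The library with the most of them, YFP-positive replicate 2, had the least Kit. The part of such cells in the Kit levels was not tested. In bulk RNA, fewer cells of a type and less RNA per cell cannot be told apart.

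Kitl (ENSMUSG00000019966.11, GRCm38 chr10:100015630-100100416, plus strand), which encodes the ligand, differed less between the cardiac fractions. It was at 12.1, 9.11 and 9.44 CPM in YFP-positive and at 42.4, 12.6 and 17.1 CPM in YFP-negative cardiac mesoderm. The ranges did not overlap, but their nearest libraries were close, and the difference of mean log2 CPM was -1.02 with a pooled SD of 0.65.

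Endoderm held 215, 92.4 and 120 CPM of Kitl. Hematopoietic mesoderm held 119, 27.7 and 10.3 CPM, a spread that reached from the endoderm range down into the cardiac range. Kitl was lower in YFP-positive cardiac mesoderm than in endoderm by -3.80 ± 0.84 on the log2 scale (SE, edgeR adjusted p = 0.0417). That call was lost without any 1 of the 6 libraries compared, with adjusted p from 0.0927 to 0.203, and with limma voom (adjusted p = 0.106).

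No other Kitl comparison passed with edgeR on all 12 libraries. YFP-negative cardiac mesoderm was at -2.57 ± 0.79 against endoderm with no overlap of libraries (edgeR adjusted p = 0.157, DESeq2 adjusted p = 0.0129, limma voom adjusted p = 0.0232). Against hematopoietic mesoderm, the log2 fold changes were -2.35 ± 0.79 for YFP-positive (edgeR adjusted p = 0.143, DESeq2 adjusted p = 0.0192) and -1.12 ± 0.76 for YFP-negative cardiac mesoderm (edgeR adjusted p = 0.502). Endoderm was at 1.45 ± 0.77 against hematopoietic mesoderm (edgeR adjusted p = 0.290).

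Set per kilobase of exon, so that the genes can be compared, ligand mRNA exceeded receptor mRNA in every YFP-positive cardiac library. The ratio of Kitl to Kit per kb was 21.9, 25.1 and 2.96 there, resting on 33 Kit counts in all. In YFP-negative cardiac mesoderm it was 4.60, 0.631 and 0.872, in endoderm 2.48, 0.948 and 1.16, and in hematopoietic mesoderm 1.03, 0.358 and 0.217. The 2 highest ratios were those of YFP-positive replicates 1 and 2, and the third YFP-positive library lay below YFP-negative replicate 1. The ratio is a description, since the cardiac difference in Kit chose the member.

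**Figure D2:**
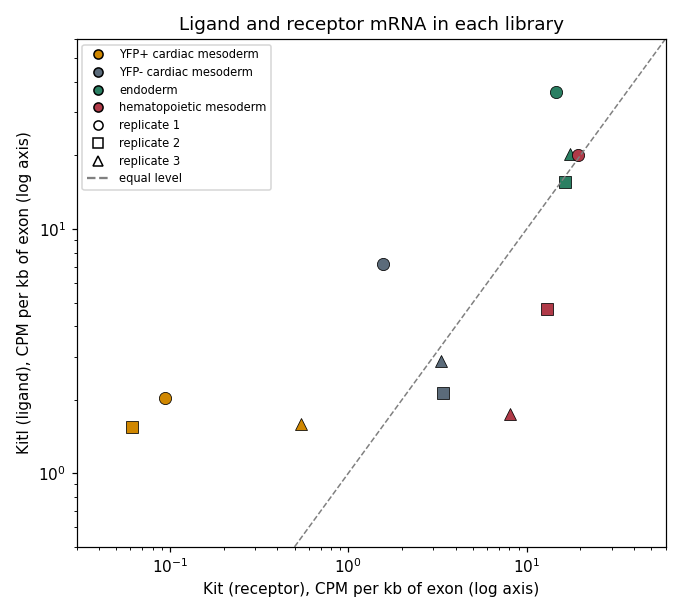
Kitl against Kit, both in CPM per kb of exon on log axes, with a symbol per library and a dashed line where the 2 are equal. The YFP-positive cardiac libraries lie to the left, at 0.0614 to 0.540 CPM per kb of Kit, while their Kitl, at 1.54 to 2.04 CPM per kb, overlaps that of hematopoietic mesoderm replicate 3 at 1.74 CPM per kb.

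Prdm1 (ENSMUSG00000038151.6, GRCm38 chr10:44437177-44528501, minus strand), a transcriptional repressor that sets germ cell fate, was highest in endoderm. Endoderm had 176, 169 and 179 CPM. YFP-positive cardiac mesoderm had 2.5, 0.365 and 2.96 CPM and YFP-negative cardiac mesoderm 0.335, 1.68 and 1.45 CPM, overlapping each other.

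Hematopoietic mesoderm had 8.19, 0.173 and 0.210 CPM of Prdm1, so that replicate 1 stood apart from the other two, which were below the limit of 3 counts. In YFP-positive cardiac mesoderm Prdm1 was lower than in endoderm by -6.48 ± 1.33 on the log2 scale (SE, edgeR adjusted p = 0.0284). In YFP-negative cardiac mesoderm it was lower by -7.20 ± 1.37 (edgeR adjusted p = 0.0206). Endoderm was higher than hematopoietic mesoderm by 5.96 ± 1.29 (edgeR adjusted p = 0.0232). This pair shares no library with the cardiac contrast, but its types were also in view when the members were chosen.

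These 3 Prdm1 calls did not all hold when libraries were left out. Both cardiac calls were lost without any 1 of the 6 libraries compared, with adjusted p from 0.0777 to 0.117 and from 0.0699 to 0.113. The call between endoderm and hematopoietic mesoderm was lost without any 1 endoderm library (adjusted p from 0.0787 to 0.0820). Without hematopoietic mesoderm replicate 1 the log2 fold change rose to 9.70 (edgeR adjusted p = 0.00104). The cardiac fractions against hematopoietic mesoderm did not pass, at edgeR adjusted p of 0.861 and 0.648.

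Kit, Kitl and Prdm1 were thus the 3 members called lower in YFP-positive cardiac mesoderm than in endoderm, where 0.586% of all genes tested were called lower and 0.953% higher. In YFP-negative cardiac mesoderm against endoderm, Prdm1 alone was called lower, with 0.6% of all genes lower and 0.706% higher. Kit alone was called lower in YFP-positive cardiac than in hematopoietic mesoderm, with 0.635% of all genes lower and 1.15% higher. No member was called in YFP-negative cardiac against hematopoietic mesoderm, where 0.191% of all genes were lower and 0.402% higher (edgeR, with 2 members at an unadjusted p under 0.05 and 1 call each by DESeq2 and limma voom). Prdm1 alone was called higher in endoderm than in hematopoietic mesoderm, with 3.23% of all genes higher and 2.42% lower. With edgeR no member was called higher in a cardiac fraction than in endoderm or hematopoietic mesoderm. Only 6 of the 9 members passed the expression filter, so these counts do not speak for all 9.

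**Figure D3:**
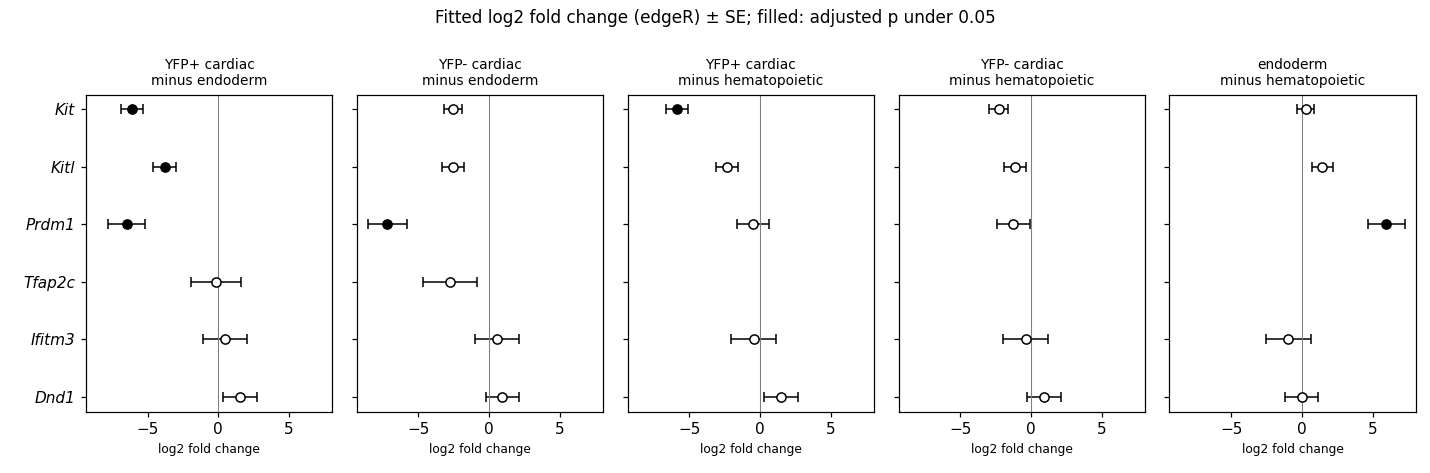
Fitted log2 fold changes (edgeR) with SE for the 6 members tested, in the 5 pairs of types tested, filled where the adjusted p was under 0.05. Filled points are Kit, Kitl and Prdm1 for YFP-positive cardiac mesoderm minus endoderm, Prdm1 for YFP-negative minus endoderm, Kit for YFP-positive minus hematopoietic mesoderm, and Prdm1 for endoderm minus hematopoietic mesoderm. Tfap2c has no point against hematopoietic mesoderm, where its 3 libraries were at 0.

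The endoderm libraries also held the most epiblast marker mRNA, a fact that stands beside their high Kit and Prdm1. The 8 epiblast markers summed to 1824, 1746 and 1797 CPM in endoderm and to 461 to 854 CPM in the cardiac libraries. They summed to 381 to 533 CPM in hematopoietic mesoderm. Sox2 was at 0 there and in YFP-positive cardiac mesoderm. By mean, Dnmt3b was the largest part in every type, at 761 CPM in endoderm and 421 CPM in hematopoietic mesoderm. It was at 412 CPM in YFP-positive and 387 CPM in YFP-negative cardiac mesoderm. Summed extraembryonic ectoderm markers were 57.7, 38.3 and 117 CPM in endoderm and 295, 137 and 47.5 CPM in hematopoietic mesoderm. The hematopoietic sum was nearly all Ets2 (176, 137 and 47.0 CPM) and, in replicate 1, Ascl2 (118 CPM, against 0.173 and 0 CPM). The list's other members, Elf5, Wnt7b and Cdx2, were near 0 in hematopoietic mesoderm (means of 0.14, 0.241 and 0.0803 CPM) and higher by mean in endoderm (16.4, 4.57 and 3.56 CPM), mainly from endoderm replicate 3. The part of such cells in the Kit, Kitl and Prdm1 levels was not tested.

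The other 2 transcription factors of germ cell specification were low or not detected. Prdm14 (ENSMUSG00000042414.7, GRCm38 chr1:13113457-13127163, minus strand) had 8 and 3 counts in YFP-negative cardiac replicates 2 and 3, or 1.12 and 0.435 CPM, and 0 in the other 10 libraries. It did not pass the expression filter and was not tested.

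Tfap2c (ENSMUSG00000028640.5, GRCm38 chr2:172549593-172558622, plus strand) had 0, 3.65 and 11.7 CPM in YFP-positive and 1.68, 0 and 0.869 CPM in YFP-negative cardiac mesoderm. It had 6.84, 1.29 and 9.15 CPM in endoderm and 0 in all 3 hematopoietic mesoderm libraries. The cardiac fractions overlapped, and the highest Tfap2c value of all was in YFP-positive replicate 3. Against hematopoietic mesoderm, edgeR gave adjusted p of 0.0895 for endoderm and 0.142 for YFP-positive cardiac mesoderm, while DESeq2 gave adjusted p of 0.0327 and 0.0458.

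The germ cell markers and maintenance genes showed no difference between types that passed the test. Dppa3 (ENSMUSG00000046323.2, GRCm38 chr6:122626410-122630272, plus strand), which protects methylation of maternal chromatin and marks early germ cells, had 8 counts in endoderm replicate 2 (1.04 CPM) and 0 in the other 11 libraries. Nanos3 (ENSMUSG00000056155.5, GRCm38 chr8:84173731-84185217, minus strand), an RNA-binding protein gene needed for germ cell survival, had 0 counts in all 12 libraries. A count of 0 in a library allows a level of up to 3 counts there. For Nanos3, the same limit over the 3 libraries of a type was 0.134 CPM in endoderm and 0.204 CPM in hematopoietic mesoderm. Neither gene was tested.

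Ifitm3 (ENSMUSG00000025492.6, GRCm38 chr7:141009586-141010770, minus strand), an interferon-induced membrane protein gene, was detected in 11 of 12 libraries but varied as much within types as between them. It had 23.7, 0.911 and 6.29 CPM in YFP-positive and 3.18, 7.99 and 21.6 CPM in YFP-negative cardiac mesoderm. It had 4.29, 13.7 and 4.04 CPM in endoderm and 8.91, 33.8 and 0 CPM in hematopoietic mesoderm. All types overlapped, and edgeR adjusted p ran from 0.794 to 1 over the 5 pairs. Its count is uncertain because similar Ifitm copies could share reads.

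Dnd1 (ENSMUSG00000044595.10), whose RNA-binding protein protects germ cell transcripts, had 7.91, 14.4 and 7.59 CPM in YFP-positive and 8.38, 8.27 and 3.19 CPM in YFP-negative cardiac mesoderm. It had 4.45, 2.33 and 3.57 CPM in endoderm and 6.99, 3.29 and 0.210 CPM in hematopoietic mesoderm. The lowest YFP-positive library was above every endoderm and hematopoietic mesoderm library, but edgeR adjusted p ran from 0.536 to 1 over the 5 pairs. Dnd1 overlaps Wdr55 on the opposite strand. Without a stated strand setting, it is not known whether reads in the overlap were left out or counted for 1 of these genes.

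**Figure D4:**
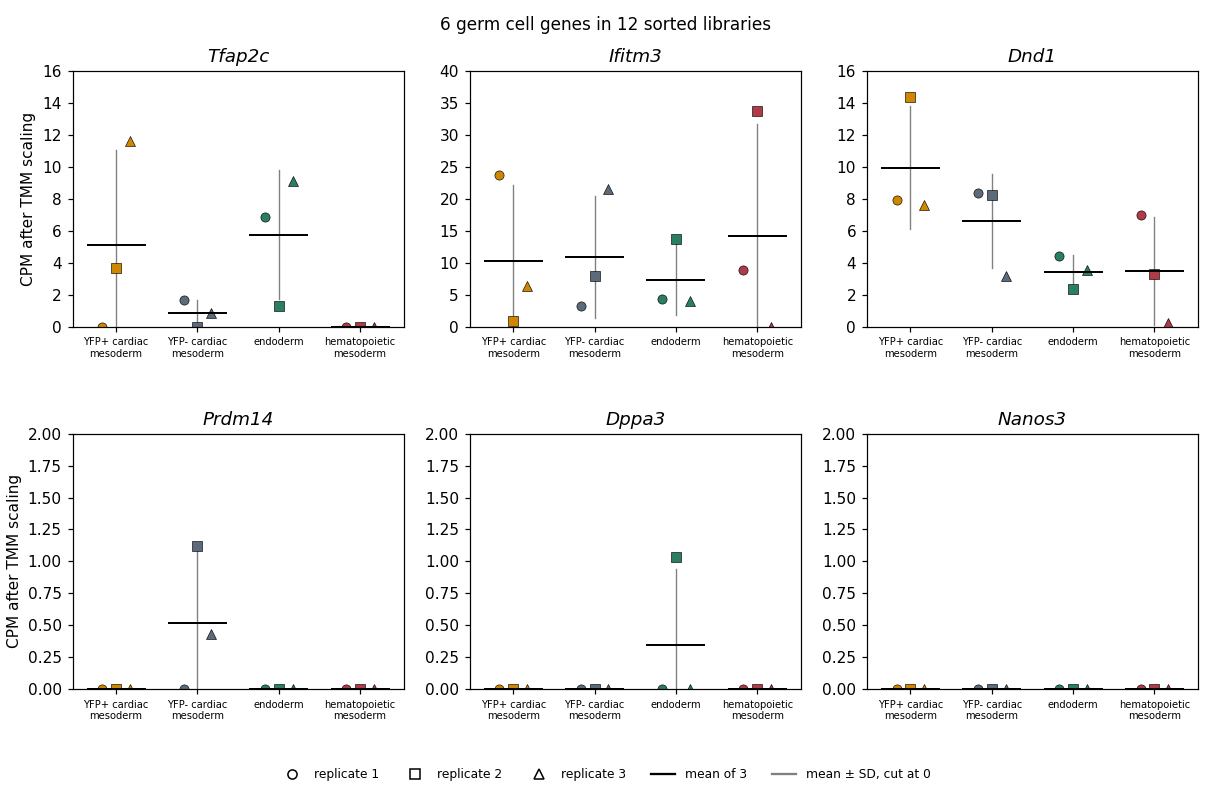
Levels of Tfap2c, Ifitm3, Dnd1, Prdm14, Dppa3 and Nanos3 in CPM after TMM scaling, on linear axes that differ between panels, with a symbol per library, a black line at the mean and a grey line for the SD. Ifitm3 and Dnd1 scatter within every type, Tfap2c is at 0 in all hematopoietic mesoderm libraries, and Nanos3 is at 0 in all 12.

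Other genes of germ cells, from a list of 25, gave 1 call among the 17 tested over the 6 pairs with edgeR. In the 5 pairs other than the cardiac one, 5 to 7 of the 17 had an unadjusted p under 0.05, DESeq2 called 2 to 5 and limma voom called 0 to 6. The edgeR call was in endoderm against hematopoietic mesoderm, where 3.23% of all genes were called higher, so that 1 of 17 is no result about the list. It was Nanog, a pluripotency factor that germ cells share with the epiblast, with 31.0, 48.2 and 50.5 CPM in endoderm and 0.242, 0 and 0 CPM in hematopoietic mesoderm (edgeR adjusted p = 0.0337). It was lost without any 1 of the 6 libraries compared, with adjusted p from 0.0677 to 0.106. Between the cardiac fractions, where 0% of all genes were called, 0 of 17 passed (edgeR, with 2 at an unadjusted p under 0.05 and 0 calls by DESeq2 and limma voom), and the list's median log2 fold change was 0.15 against 0.03 over all genes tested.

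The 8 genes of that list that did not pass the expression filter included Dazl, a germ cell RNA-binding protein gene, with 28 counts over 7 libraries. Nanos2 and Tcl1 had 0 counts in all 12 libraries. Pou5f1, Sox2 and Tdrd1 were picked out after their values were seen. Pou5f1, which encodes the pluripotency factor OCT4 and is also an epiblast marker, was at 12.7, 0 and 26.8 CPM in YFP-positive and 4.02, 4.90 and 10.3 CPM in YFP-negative cardiac mesoderm. It was at 22.9, 35.1 and 23.4 CPM in endoderm and at 0, 2.42 and 0.210 CPM in hematopoietic mesoderm, with no overlap of these 2 types (edgeR adjusted p = 0.121). Sox2, another pluripotency factor, averaged 10.9 CPM in endoderm and was at 0 in all YFP-positive cardiac (edgeR adjusted p = 0.0953) and hematopoietic mesoderm libraries (edgeR adjusted p = 0.0547). Tdrd1, a germ cell tudor domain gene, averaged 21.3 CPM in endoderm and 0.198 CPM in hematopoietic mesoderm (edgeR adjusted p = 0.0670). Ifitm1, also picked by its values, went the other way, with a mean of 15.1 CPM in endoderm. It averaged 76.2 CPM in YFP-positive (edgeR adjusted p = 0.0531) and 61.1 CPM in YFP-negative cardiac mesoderm (edgeR adjusted p = 0.0993). Alpl and Cxcr4 were also lower by mean in endoderm than in both cardiac fractions. Of the 17 tested, 7 had a log2 fold change above 0 in YFP-positive cardiac mesoderm against endoderm, and 8 in YFP-negative. Pou5f1 and Nanog, like Kit and Tfap2c, were highest of the YFP-positive libraries in replicate 3.

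The signals that induce germ cells were measured through 10 genes, all of which passed the filter. Bmp4, the BMP ligand that induces germ cells, was at 108, 189 and 94.8 CPM in YFP-positive and 192, 152 and 135 CPM in YFP-negative cardiac mesoderm. It was at 8.91, 16.6 and 37.3 CPM in endoderm and 136, 168 and 275 CPM in hematopoietic mesoderm. Every endoderm library was below every other library, the opposite order to Prdm1. It was not the opposite of Kit, which was high in hematopoietic mesoderm too.

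Bmp4 was higher than in endoderm by 2.64 ± 0.49 in YFP-positive (SE, edgeR adjusted p = 0.0166) and by 2.93 ± 0.50 in YFP-negative cardiac mesoderm (edgeR adjusted p = 0.0105) on the log2 scale. Endoderm was lower than hematopoietic mesoderm by -3.20 ± 0.50 (edgeR adjusted p = 0.00394). The first call was lost without YFP-positive replicate 2 (adjusted p = 0.0637), endoderm replicate 1 (0.0790) or endoderm replicate 2 (0.123), and the second without YFP-negative replicate 1 (0.0522) or endoderm replicate 2 (0.0728). Smad5, which carries the BMP signal to the nucleus, was higher in endoderm (220 ± 2.61 CPM, SD, n = 3) than in hematopoietic mesoderm (101 ± 5.45 CPM) by 1.12 ± 0.24 on the log2 scale (edgeR adjusted p = 0.0235). That call was lost without hematopoietic mesoderm replicate 1 (adjusted p = 0.0546) or any 1 endoderm library (0.0834 to 0.0866), and with limma voom (0.0533).

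Of these 10 genes, 0 passed between the cardiac fractions, where 0% of all genes did (edgeR, with 0 at an unadjusted p under 0.05 and 0 calls by DESeq2 and limma voom), with a median log2 fold change of -0.17. With edgeR, no gene of this list other than Bmp4 and Smad5 passed in any of the 6 pairs. Outside the cardiac pair, 2 to 4 of the 10 had an unadjusted p under 0.05 (edgeR). DESeq2 called 1 to 4 there and limma voom 0 to 4. The Bmp4 calls against endoderm stood beside 0.953% (YFP-positive) and 0.706% (YFP-negative) of all genes called higher. The 2 calls between endoderm and hematopoietic mesoderm stood beside 3.23% of all genes called higher and 2.42% lower in endoderm.

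Downstream of the receptor, all 29 genes of a Kit signalling list passed the filter, and 0 passed the test between the cardiac fractions, where 0% of all genes did (edgeR, with 2 at an unadjusted p under 0.05 and 0 calls by DESeq2 and limma voom). The list's median log2 fold change there was 0.11. Spred1, an inhibitor of RAS and MAPK signalling, had 262, 287 and 230 CPM in YFP-positive cardiac mesoderm and 122.6, 122.6 and 158 CPM in hematopoietic mesoderm. It was higher by 0.95 ± 0.18 on the log2 scale (SE, edgeR adjusted p = 0.0249). This was the call of 1 gene of 29, where 1.15% of all genes were called higher and 0.635% lower. Of the 29, 7 had an unadjusted p under 0.05 (edgeR), DESeq2 called 3 and limma voom called 0. With a replicate block the edgeR call of Spred1 was lost (adjusted p = 0.0510). So it was without YFP-positive replicate 1 (0.0541), YFP-positive replicate 2 (0.0691) or hematopoietic mesoderm replicate 1 (0.0618). It was also lost when only the 2 types were fitted (edgeR adjusted p = 0.299) and with limma voom (adjusted p = 0.192).

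Sh2b3, an adaptor that restrains cytokine receptors and Kit in blood cells, had 170, 131 and 166 CPM in hematopoietic mesoderm and 19.2, 18.3 and 10.8 CPM in endoderm. Endoderm was lower by -3.27 ± 0.72 on the log2 scale (SE, edgeR adjusted p = 0.0238). The call was lost without hematopoietic mesoderm replicate 1 (adjusted p = 0.0527) or any 1 endoderm library (0.0927 to 0.116). In this pair 3.23% of all genes were called higher and 2.42% lower in endoderm, so that 1 of 29 is no result about the list. Of the 29, 4 had an unadjusted p under 0.05 (edgeR), DESeq2 called 2 and limma voom called 1. In the other 4 pairs 0 of 29 passed (edgeR, with 2 or 3 genes at an unadjusted p under 0.05, 0 to 3 calls by DESeq2 and 0 to 2 by limma voom). At most 0.953% of all genes were called in 1 direction in these pairs.

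Likeness to a member was measured as the root mean square difference of centred log2 CPM over the 12 libraries, among genes tested with a mean of at least 10 CPM in 1 type. The genes most like Kit were Dusp4, a phosphatase that turns off MAPK (1.18), Crip2 (1.23), Syt14 (1.35), Gldc, a glycine cleavage enzyme gene (1.37), and Slc25a23 (1.37), against a median of 2.75 over 10417 genes. Dusp4 had means of 4.34 CPM in YFP-positive and 30.1 CPM in YFP-negative cardiac mesoderm, 82.5 CPM in endoderm and 118 CPM in hematopoietic mesoderm. Gldc shared the step to endoderm (152 CPM) and hematopoietic mesoderm (163 CPM) but not that between the cardiac fractions, at 17.7 and 14.7 CPM. The most like Kitl was Armc10 (0.820), the most like Prdm1 was Samd3 (0.884), with a mean of 63.4 CPM in endoderm and at most 1.29 CPM in the other types, and the most like Tfap2c was Wipi1 (0.945). The most like Ifitm3 and Dnd1 were Tlnrd1 (0.645) and Trmt44 (0.413). These measures describe these libraries and were not tested.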

How the data were processed

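RNA was sequenced from 12 libraries, prepared with a nanoprep RNA kit and an ultralow-input amplification system, per the labels' protocols. The values the authors deposited are raw counts of reads per gene. STAR 2.5.0a, Picard, HTSeq 0.6.0, DESeq2 and mm10 are named, without roles, per the submitters' processing notes; annotation and strand setting are not given in the sources used here. Genes took 18.3% to 21.5% of tallied reads, and the 5 summary rows of each file were left out. Reads that could fit several genes were not assigned, so genes with close copies are uncertain.

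Counts were fitted with edgeR 4.0.16 (R 4.3.3, TMM scaling, default expression filter, quasi-likelihood test) on all 12 libraries with 1 coefficient per type and 8 residual degrees of freedom. P-values were two-sided and adjusted by Benjamini-Hochberg over all 14170 genes tested, with a threshold of 0.05. The SE is the log2 fold change over the square root of its F statistic. Log2 CPM used a prior count of 2. DESeq2 1.42.0 and limma 3.58.1 (voom) were alternatives, and the procedures were tested on simulated data. Positions and exon lengths are from GENCODE M21 (GRCm38), promoters from RefSeq (GRCm38.p6). No 2 libraries of a type agreed within sampling noise (chi-square per degree of freedom 18.3 to 121).

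The members and gene lists were chosen with earlier results of these data known. All members were named, with list genes that passed the test and the genes most like a member, passing over predicted genes and pseudogenes.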

Additional observations from a re-analysis of the deposited data

How the results depend on the processing

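The alternatives were RLE scaling, library totals without TMM, no filter, a minimum mean of 5 CPM in 1 type, a replicate block, DESeq2, limma voom, a fit restricted to a pair's own types, and leaving out each library in turn. The cause of the changes below was not tested.

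The count of members called in YFP-positive cardiac mesoderm against endoderm was 3, but 2 with limma voom, and 1 in every fit without a library (1 to 1). In YFP-negative against endoderm it was 1, but 2 without a filter, 3 with DESeq2, 3 with limma voom, 3 with only the pair's types, and 0 to 0 without a library. In YFP-positive against hematopoietic mesoderm it was 1, but 3 with DESeq2, 0 with limma voom, 0 with only the pair's types, and 1 to 2 without a library. In YFP-negative against hematopoietic mesoderm it was 0, but 1 with DESeq2 and 1 with limma voom. In endoderm against hematopoietic mesoderm it was 1, but 2 with DESeq2 and 0 to 1 without a library. The calls over the 3 other lists numbered 7, but 33 with DESeq2, 24 with limma voom, 22 with only the pair's types, and 1 to 13 without a library. The Kit difference between the cardiac fractions kept its sign throughout, from -4.54 to -3.26.

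Some log2 fold changes of members that had not passed changed sign. Without 1 library, their ranges in YFP-positive and YFP-negative cardiac against hematopoietic mesoderm were -1.09 to 3.22 and -1.81 to 2.5 for Prdm1, and -1.97 to 1.22 and -1.33 to 1.3 for Ifitm3. That of Kitl in YFP-negative against hematopoietic mesoderm was -1.80 to 0.34. Against endoderm they were -1.64 to 0.41 for Tfap2c (YFP-positive) and -1.02 to 1.25 (YFP-positive) and -0.41 to 1.36 (YFP-negative) for Ifitm3. In endoderm against hematopoietic mesoderm they were -1.73 to 0.73 for Ifitm3 and -0.57 to 0.96 for Dnd1. With limma voom, Prdm1 turned to 0.88 and 0.35 in YFP-positive and YFP-negative against hematopoietic mesoderm, and Ifitm3 to -0.42 in YFP-positive against endoderm and 0.22 in YFP-negative against hematopoietic mesoderm. With the replicate block, Tfap2c turned to 0.23 in YFP-positive against endoderm, and Ifitm3 to 0.089 and 0.27 in YFP-positive and YFP-negative against hematopoietic mesoderm. Dnd1 in endoderm against hematopoietic mesoderm turned to 0.020 with RLE, 0.15 with library totals, 0.46 with the replicate block, 0.022 with DESeq2 and 0.35 with limma voom.

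Names of the files of same-numbered libraries share a date string whose meaning the labels do not give, but those libraries did not deviate together (correlations from -0.018 to 0.032). With the replicate block, the Kit call against endoderm had an edgeR adjusted p of 0.00445. The block changed no member's call, and of the 7 list calls only that of Spred1. Numbers of genes called over all genes ranged over all fits from 0 to 97 between the cardiac fractions (0), from 71 to 1130 (218) and 69 to 1812 (185) for YFP-positive and YFP-negative against endoderm, from 13 to 1491 (253) and 10 to 1040 (84) against hematopoietic mesoderm, and from 180 to 1854 between the last 2 types (800).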
